A study of Mus musculus with 12 samples.

Results

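The 4 NF-κB subunit genes Nfkb1, Nfkb2, Rela and Relb and the 6 inhibitor genes Nfkbia, Nfkbib, Nfkbie, Nfkbiz, Tnfaip3 and Bcl3 were followed in KPC cells treated with cisplatin (Cis). The 10 members were chosen with earlier results of these data known and taken by gene symbol, with no threshold on their values, from 15803 genes that had a read in any library, each represented by 1 transcript. All 10 passed the filter on low values in both assays. KPC cells are a mouse pancreatic ductal adenocarcinoma (PDAC) line derived from tumours of engineered mice with the allele Trp53 LSL-R172H, which Pdx1-Cre, expressed from a pancreatic promoter, switches on, so every library carries the same alleles and comes from 1 line. Cells received 20 μM Cis, a platinum drug that crosslinks DNA, for 6 h or 21 h, or were controls, which the labels call untreated and the methods describe as given PBS. The same untreated libraries served as control for both times, and the time they spent in culture is not labelled. Each condition had 2 ribosome-footprint (Ribo-seq) libraries, which count ribosomes on coding sequences, and 2 RNA-seq libraries of the same kind of lysate, 12 libraries in all.

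NF-κB is a family of dimeric transcription factors built from Rel-domain proteins, which in resting cells are held in the cytoplasm by IκB inhibitors. Inflammatory receptors and DNA sensing activate IκB kinases, IκB is degraded, and the freed dimers enter the nucleus. Several genes that the dimers switch on encode the pathway's own brakes, among them IκBα and A20, so that the response limits itself.

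Levels are given as scaled RPKM, that is reads per kilobase of coding sequence (footprints) or of transcript (RNA) normalised to the depth of the library by the authors and divided here by a size factor, which compares genes per length. Rises and falls are therefore relative to the other transcripts of a library, and a change in total translation or total RNA would not show. The paper reports reduced protein synthesis under Cis in a puromycin assay. The footprint libraries held 3375480 to 5204127 reads and the RNA libraries 1985344 to 2901692 reads, of which 3 transcripts took 51.8 to 56.6%. Size factors lay between 0.959 and 1.09, and the 2 libraries of a group correlated across transcripts at 0.966 to 0.989 on the log2 scale. Of 10 pancreatic ductal epithelium markers, 8 had a mean footprint level of at least 1 scaled RPKM and their summed level was 9286 to 9739 untreated and at 6 h and 6597 to 6756 at 21 h, while Epcam was at 0.281 to 1.82 and Muc1 and Cldn4 at 0 to 0.936. The 9 leukocyte markers summed to 1.72 to 2.39 footprint units untreated and at 6 h and to 3.70 and 10.2 at 21 h, with Itgam, Cd3e and Tyrobp at 0 in all 6 footprint libraries. The 6 fibroblast markers summed to 1.09 to 4.11, the 4 endothelial markers to at most 0.663, the 5 acinar markers to 1.67 to 6.00, all of it Cela1, and the 4 islet markers to 0. The part that these shifts at 21 h have in the results was not tested.

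The DNA at the start of the members' genes is shown because the dimers bind a short sequence, the κB site. RefSeq start regions (mouse build GRCm38.p6, 250 bases before to 50 bases after the annotated start) were at hand for 7 of the 10 members, in 10 regions. They were searched on both strands for the 10-base kappaB consensus motif, which occurred in 8.46% of all 32851 such regions and in the regions of 9.55% of 27025 genes. Of the 7 members, 5 held a match (Nfkbia, Tnfaip3, Nfkb2, Nfkbie and Bcl3) and 2 did not (Rela and Nfkbib). No start region was at hand for Nfkb1, Relb or Nfkbiz. The 150 bases before the start are printed 5′ to 3′ on the gene's strand, with matches in capitals.
Nfkbia (chr12:55492648-55492797, minus strand): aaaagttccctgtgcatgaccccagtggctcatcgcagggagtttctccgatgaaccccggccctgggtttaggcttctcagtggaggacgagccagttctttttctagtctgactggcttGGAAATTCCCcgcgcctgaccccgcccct
Tnfaip3 (chr10:19015411-19015560, minus strand): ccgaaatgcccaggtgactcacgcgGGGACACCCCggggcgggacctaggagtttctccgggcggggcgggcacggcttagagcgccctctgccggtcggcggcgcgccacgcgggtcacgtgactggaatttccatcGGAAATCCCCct
Nfkb2 (chr19:46304587-46304736, plus strand): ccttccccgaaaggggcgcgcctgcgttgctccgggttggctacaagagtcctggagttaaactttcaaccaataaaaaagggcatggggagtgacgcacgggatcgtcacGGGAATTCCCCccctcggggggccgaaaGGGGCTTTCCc
Nfkbie (chr17:45555550-45555699, plus strand): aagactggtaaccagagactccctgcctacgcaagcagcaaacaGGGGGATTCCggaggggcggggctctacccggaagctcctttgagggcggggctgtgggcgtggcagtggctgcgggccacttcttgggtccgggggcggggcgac
Rela (chr19:5637391-5637540, plus strand): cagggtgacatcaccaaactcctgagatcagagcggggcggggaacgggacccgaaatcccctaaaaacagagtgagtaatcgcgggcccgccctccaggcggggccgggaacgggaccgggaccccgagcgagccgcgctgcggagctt
Nfkbib (chr7:28766645-28766794, minus strand): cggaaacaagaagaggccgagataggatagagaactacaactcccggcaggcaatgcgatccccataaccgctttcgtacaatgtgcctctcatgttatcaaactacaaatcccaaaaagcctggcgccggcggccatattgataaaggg

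The match of Nfkbia began 29 bases before the start and that of Nfkbie 106 bases before it. Tnfaip3 had matches 125 and 12 bases before its start, and the first region of Nfkb2 had matches 39 bases before, with a second reading of the same site shifted by 1 base, and 11 bases before. Bcl3 matched 2 bases after its start, and the further start regions of Nfkb2 held matches 236 bases before and 10 bases after one start, the last of which is the same site as that 225 bases before the neighbouring start. A second start region of Tnfaip3 held none. A match is a stretch of letters and not a measured binding event. Whether the matches have a part in the changes of the members was not tested.

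**Figure D1:**
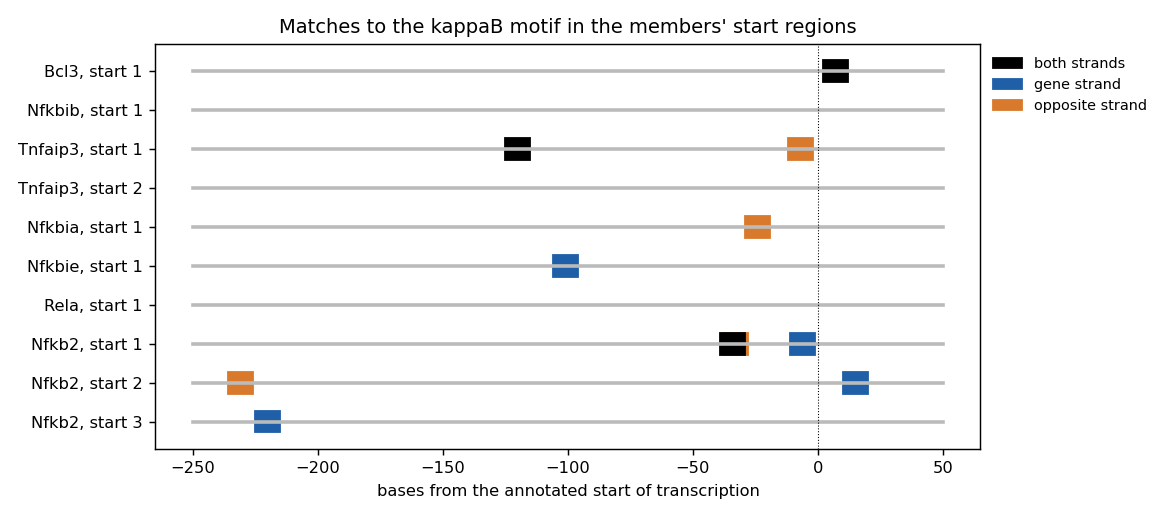
Position of matches to the kappaB consensus motif in the 10 RefSeq start regions of 7 members, in bases from the annotated start of transcription (0). Boxes are 10 bases wide and coloured by strand, and Nfkbib, Rela and the second Tnfaip3 region have no box.

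After 21 h of Cis, the family's make-up had shifted: Nfkb1 footprints fell to 0.474 times the untreated level, while Rela, Relb and Nfkb2 rose, and Nfkbia, Nfkbib and Tnfaip3 rose among the inhibitors. At 6 h no member passed the test. Relative to the other transcripts, 6 of 10 members had more footprints at 21 h (limma with Benjamini-Hochberg adjustment over all transcripts tested, adjusted p under 0.05), against a background of 18.9% of 10383 transcripts called higher, and 1 had fewer, against 20.2% called lower. In RNA, Rela and Tnfaip3 were called higher and no member lower, against 11.6% of 9443 transcripts called higher and 12.2% called lower. The RNA log2 fold change of Nfkb1 was -0.58 ± 0.19, just outside the threshold (limma, adjusted p = 0.0527). The median log2 fold change of footprints at 21 h was 0.58 for the 4 subunits and 0.39 for the 6 inhibitors, beside 0.01 for all transcripts, and without 21 h replicate 1 that of the inhibitors was 0.23. In RNA the medians were 0.90 for subunits and 0.46 for inhibitors, beside 0.02 for all transcripts. Fewer cells and less RNA per cell cannot be told apart in bulk lysates, and whether replicates came from separate cultures is not labelled, so p-values measure the spread between these libraries.

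**Figure D2:**
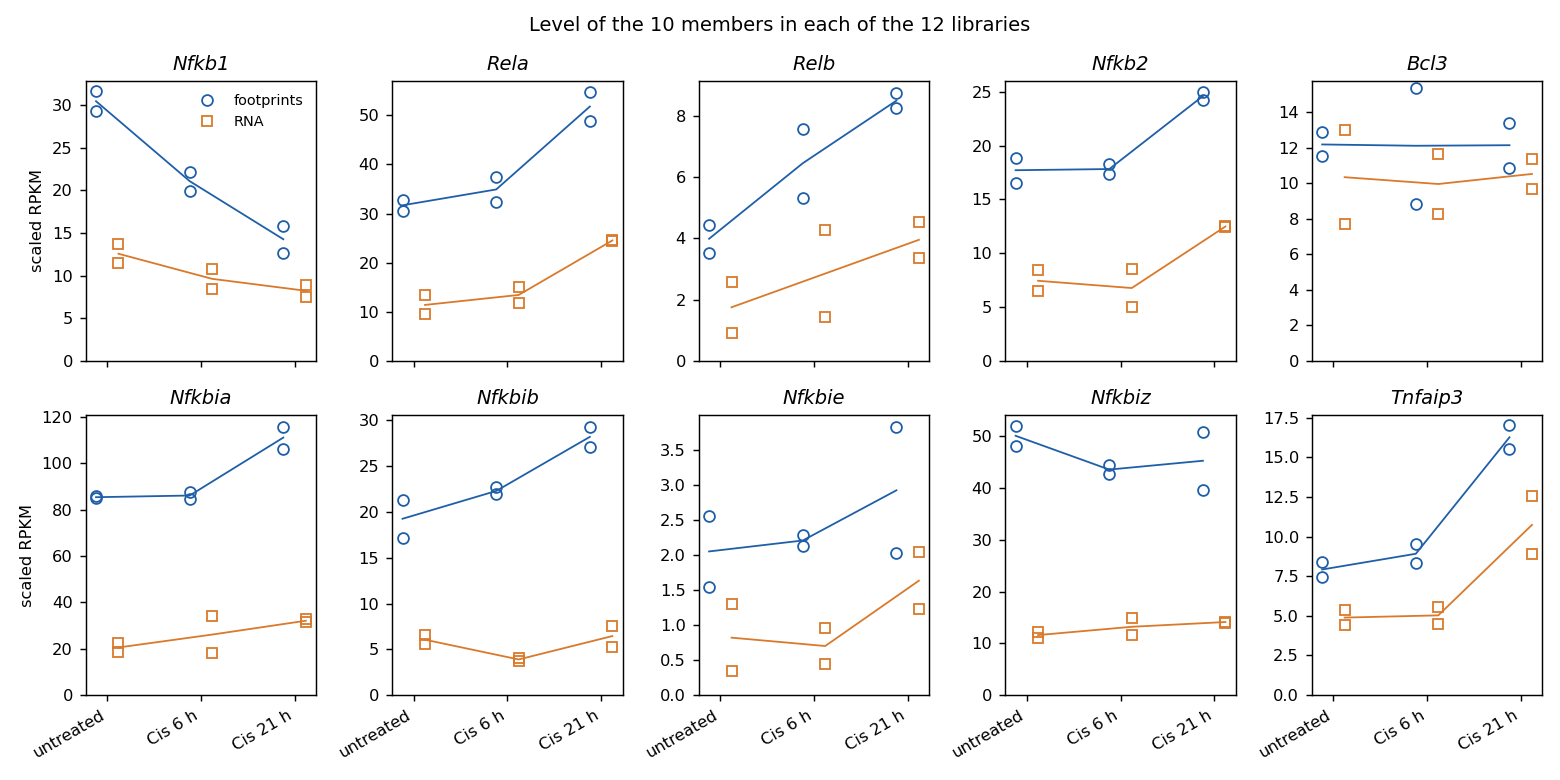
Scaled RPKM of each member in the 12 libraries, footprints as blue circles and RNA as orange squares, with lines through the group means of 2 libraries. Nfkb1 footprints go down at each time, from 29.3 and 31.6 to 15.9 and 12.7, whereas Rela, Nfkb2, Nfkbia and Tnfaip3 are flat or little changed at 6 h and higher at 21 h.

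Nfkb1 (ENSMUSG00000028163) encodes p105, which is processed to the p50 subunit and, unprocessed, acts as an inhibitor itself. Its footprint level was 29.3 and 31.6 scaled RPKM in the untreated libraries, 20.0 and 22.2 at 6 h, and 15.9 and 12.7 at 21 h. The 3 groups did not overlap and stood in order of time. At 21 h the footprint log2 fold change was -1.08 ± 0.15 (SE), a level 0.474 times that of untreated cells (limma, Benjamini-Hochberg adjusted p = 0.000922), and Nfkb1 was called under all 16 alternatives, with adjusted p up to 0.0107. At 6 h it was -0.52 ± 0.15 and not called (limma, adjusted p = 0.107), although voom on the recovered reads, a count-based weighting, called it (adjusted p = 0.00191). The further fall between 6 h and 21 h, of 0.55 on the log2 scale, was called (limma, adjusted p = 0.0254), but not without either 6 h library or without 21 h replicate 2 (adjusted p 0.0651 to 0.141).

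Nfkb1 RNA was 11.5 and 13.6 scaled RPKM in untreated cells, 8.42 and 10.8 at 6 h, and 8.91 and 7.53 at 21 h. Both libraries of each Cis time lay below both untreated libraries, and the 2 times overlapped. The RNA log2 fold change at 21 h was -0.58 ± 0.19, just outside the threshold (limma, adjusted p = 0.0527), and 6 of 16 alternatives called it, among them voom (adjusted p = 0.00295) and the fits without either 6 h library (0.0432 and 0.0449).

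Rela (ENSMUSG00000024927) encodes p65, the subunit with a transactivation domain that pairs with p50 in the classical dimer. Its footprint level was 32.8 and 30.5 scaled RPKM untreated, 32.4 and 37.4 at 6 h, and 48.9 and 54.7 at 21 h. The 21 h libraries stood above the other 4, which overlapped. The log2 fold change at 21 h was 0.70 ± 0.12, or 1.62-fold (limma, adjusted p = 0.00274). Rela RNA rose as well, from 9.45 and 13.3 untreated and 15.1 and 11.8 at 6 h to 24.6 and 24.5 at 21 h, a log2 fold change of 1.09 ± 0.19 or 2.13-fold (limma, adjusted p = 0.00355). Both calls held under all 16 alternatives, with adjusted p up to 0.0223 in footprints and 0.0327 in RNA. No match to the κB motif was found in the start region printed for Rela.

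Relb (ENSMUSG00000002983) and Nfkb2 (ENSMUSG00000025225), which encodes the p100 precursor of p52, make the dimer of the non-canonical branch, and p100 holds Relb back until it is processed. Relb had few reads, 27 to 52 footprints and 6 to 23 RNA reads a library. Its footprint level was 4.45 and 3.53 scaled RPKM untreated, 5.33 and 7.58 at 6 h, and 8.25 and 8.75 at 21 h, so that the 3 groups did not overlap. The footprint log2 fold change was 1.01 ± 0.23 at 21 h, or 2.01-fold (limma, adjusted p = 0.00903; 0.0649 without untreated replicate 2), and 0.62 ± 0.23 at 6 h, where it was not called (limma, adjusted p = 0.176). Relb RNA, at 2.58 and 0.919 untreated, 1.43 and 4.28 at 6 h and 3.36 and 4.55 at 21 h, had a log2 fold change of 1.08 ± 0.47 at 21 h and was not called (limma, adjusted p = 0.129), while voom called it (adjusted p = 0.0179). Untreated and 21 h libraries did not overlap in RNA, and those of 6 h spread across both.

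Nfkb2 footprints were 18.9 and 16.5 scaled RPKM untreated, 18.3 and 17.4 at 6 h, and 25.0 and 24.2 at 21 h. Levels at 6 h lay inside the untreated range, and both 21 h libraries stood above all others. The footprint log2 fold change at 21 h was 0.47 ± 0.14, or 1.38-fold (limma, adjusted p = 0.0248), and the call was lost without untreated replicate 2 (adjusted p = 0.139), 21 h replicate 1 (0.0719) or 21 h replicate 2 (0.0565). Nfkb2 RNA went from 6.48 and 8.41 untreated, and 8.53 and 5.01 at 6 h, to 12.5 in both 21 h libraries. Against untreated its RNA log2 fold change was 0.72 ± 0.25 and not called (limma, adjusted p = 0.0604), with 6 of 16 alternatives calling it, among them those without 6 h replicate 1 (0.0264) and without 6 h replicate 2 (0.0235).

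**Figure D3:**
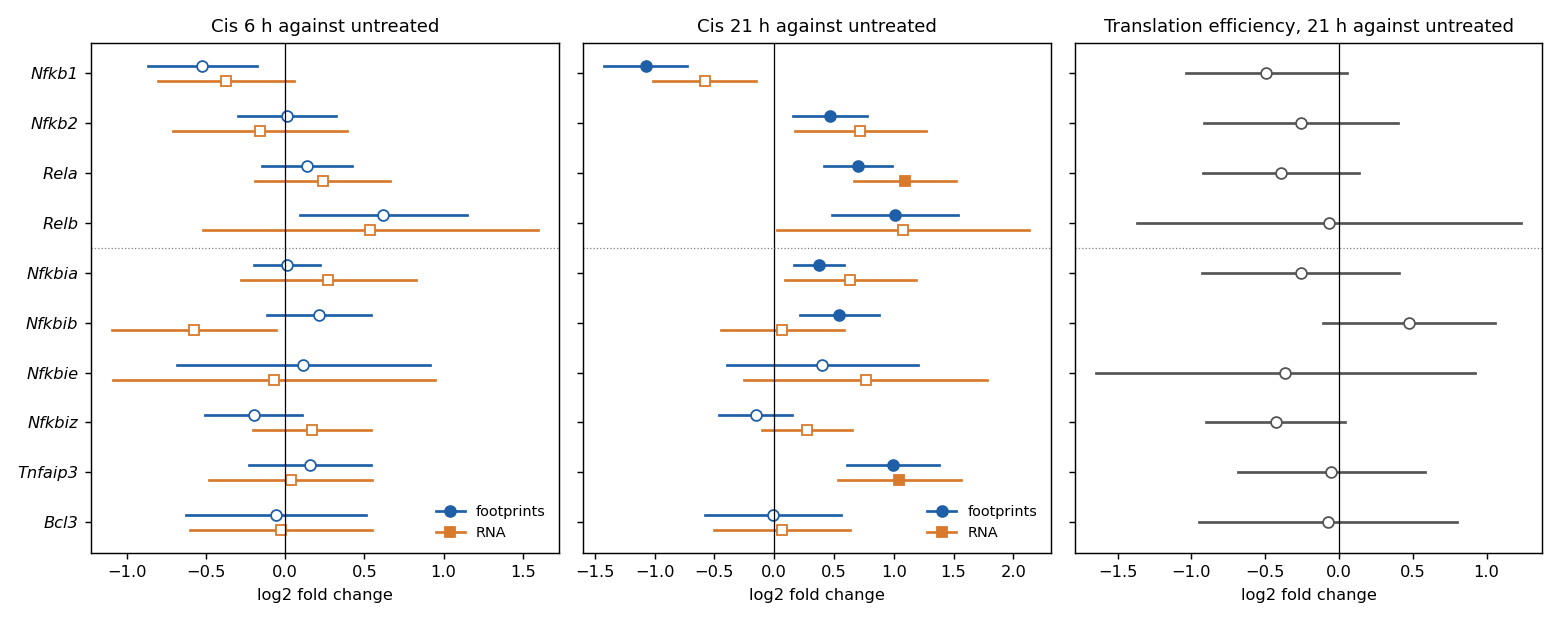
log2 fold change of each member with its 95% confidence interval from limma, at 6 h and 21 h of Cis against untreated for footprints (blue circles) and RNA (orange squares), and the change of translation efficiency at 21 h (grey); filled points passed an adjusted p of 0.05 and subunits stand above the dotted line. Only Nfkb1 has both its 21 h intervals below 0, and no translation efficiency point is filled.

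Among the inhibitors, Nfkbia (ENSMUSG00000021025), which encodes IκBα, the IκB of the fast feedback loop, had the highest footprint level of all 10 members in each condition. Its footprints were 84.9 and 85.9 scaled RPKM untreated, 87.7 and 84.6 at 6 h, and 116 and 106 at 21 h. The 6 h and untreated libraries overlapped and the 21 h libraries stood above both. The log2 fold change at 21 h was 0.38 ± 0.09, or 1.30-fold (limma, adjusted p = 0.0118; 0.0530 without 21 h replicate 1). Nfkbia RNA was 22.5 and 18.7 untreated, 34.3 and 18.0 at 6 h, and 32.6 and 31.6 at 21 h, with the 2 libraries at 6 h reaching from below to above all others. Its RNA log2 fold change at 21 h, 0.64 ± 0.25, was not called (limma, adjusted p = 0.0900); voom (0.00134) and 4 other alternatives called it, 2 of which left out a single 6 h library (0.0119 without replicate 1 and 0.0106 without replicate 2).

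Tnfaip3 (ENSMUSG00000019850) encodes A20, a ubiquitin-editing enzyme that shuts off signalling upstream of the IκB kinases. Its footprint level was 7.47 and 8.37 scaled RPKM untreated, 8.31 and 9.52 at 6 h, and 17.0 and 15.5 at 21 h. Both 21 h libraries were far above the other 4. The log2 fold change was 0.99 ± 0.17, or 1.99-fold (limma, adjusted p = 0.00220, and at most 0.0194 under 16 alternatives). RNA moved by a like amount, from 4.42 and 5.36 untreated and 5.58 and 4.48 at 6 h to 12.6 and 8.89 at 21 h, a log2 fold change of 1.05 ± 0.23 (limma, adjusted p = 0.0105; 0.0756 without untreated replicate 1 and 0.0762 without 21 h replicate 1). Of the inhibitors, it was the only one called in both assays.

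Nfkbib (ENSMUSG00000030595) encodes IκBβ, a slower IκB. Its footprints were 17.2 and 21.3 scaled RPKM untreated, 22.7 and 21.9 at 6 h, and 27.1 and 29.3 at 21 h. Each later group lay above the one before it. The log2 fold change at 21 h was 0.55 ± 0.14, or 1.46-fold (limma, adjusted p = 0.0167; 0.106 without untreated replicate 1 and 0.0672 without 21 h replicate 2). Its RNA took another course, 6.52 and 5.58 untreated, 4.08 and 3.71 at 6 h, and 7.60 and 5.30 at 21 h, lowest in both 6 h libraries. Against untreated the RNA log2 fold change was -0.57 ± 0.23 at 6 h (limma, adjusted p = 0.399) and 0.07 ± 0.23 at 21 h (limma, adjusted p = 0.860), neither called, and the latter turned negative without RNA untreated replicate 2 or 21 h replicate 1 (-0.04 and -0.17). These RNA values rest on 16 to 38 reads a library.

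Nfkbiz, Bcl3 and Nfkbie were not called in any comparison. Nfkbiz (ENSMUSG00000035356) and Bcl3 (ENSMUSG00000053175) encode IκBζ and BCL3, nuclear IκB proteins that bind p50 or p52 and can activate as well as block transcription. Nfkbiz had the next highest footprint level after Nfkbia in untreated cells, 52.0 and 48.2 scaled RPKM, with 44.4 and 42.7 at 6 h and 50.8 and 39.7 at 21 h. Both 6 h libraries were below the untreated ones and the 21 h libraries spread across both groups. The 95% confidence interval of its footprint log2 fold change at 21 h ran from -0.46 to 0.15 around -0.15, which turned to 0.032 without 21 h replicate 2. Its RNA was 12.2 and 11.0 untreated, 14.8 and 11.6 at 6 h, and 14.2 and 14.0 at 21 h, a log2 fold change of 0.27 ± 0.17 at 21 h (limma, adjusted p = 0.266).

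Bcl3 footprints, 11.5 and 12.9 scaled RPKM untreated, were 8.85 and 15.4 at 6 h and 10.9 and 13.4 at 21 h, and the 3 groups overlapped. The interval of its log2 fold change at 21 h was -0.58 to 0.56 in footprints and -0.51 to 0.64 in RNA, so changes inside those bounds were not detectable. Bcl3 was the member with the fewest ribosomes for its RNA: footprints over RNA in untreated cells stood at percentile 9.22 of 9295 transcripts, and Tnfaip3 at percentile 15.6, whereas Nfkbiz and Nfkbia stood at 64.3 and 63.2. Nfkbie (ENSMUSG00000023947), which encodes IκBε, had 8 to 16 footprints and 2 to 11 RNA reads a library. At 1.54 and 2.55 scaled RPKM untreated, 2.29 and 2.12 at 6 h and 3.82 and 2.02 at 21 h, its groups overlapped, and the interval of its log2 fold change at 21 h, -0.40 to 1.20 around 0.40, leaves a wide range.

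No member was called at 6 h in either assay, where 2.04% of 10383 transcripts in footprints and 0% of 9443 in RNA were called. At an unadjusted p under 0.05 there were 2 members in footprints (Nfkb1 and Relb) and 1 in RNA (Nfkbib). Over all transcripts, 2217 of 10383 in footprints and 1086 of 9443 in RNA passed that threshold. By voom, 1 member was called in footprints and 0 in RNA, beside 1276 and 229 of all transcripts. The contrast of 21 h with 6 h compares the means of the Cis libraries only, with a spread estimated over all 3 groups. It called 5 members in footprints (Nfkb2, Rela, Nfkbia and Tnfaip3 higher, Nfkb1 lower; background 15.0% higher and 15.7% lower) and 3 in RNA (Nfkb2, Rela and Tnfaip3 higher; background 7.53% and 8.21%). The footprint count fell to 0 without 6 h replicate 1, and to 2, 3 and 2 without 6 h replicate 2, 21 h replicate 1 and 21 h replicate 2. The RNA count fell to 0 without 6 h replicate 2 or 21 h replicate 1, to 1 without 21 h replicate 2, and to 2 without either untreated library or with only the groups compared, where the Nfkb2 call was lost (limma, adjusted p 0.0505 to 0.0512).

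Subunits and inhibitors were set against each other within each library, where the size factor cancels. Summed over members, inhibitors had 2.04 and 2.18 times the subunits' footprint level untreated, 2.29 and 2.08 times at 6 h, and 2.30 and 2.06 times at 21 h. These values overlapped at all times: the log2 ratio differed from untreated by 0.05 at 6 h and by 0.04 at 21 h, less than the pooled SD of 0.08 and 0.09, and either difference could turn negative on leaving out 1 library (lowest -0.02 and -0.04). In RNA the ratio was 1.96 and 1.37 untreated, 2.12 and 1.47 at 6 h, and 1.61 and 1.46 at 21 h, also overlapping. The inhibitor sum is carried by Nfkbia, which made up 47.9 to 51.6% of it in footprints, and Nfkbiz, whose share was 29.8 and 26.9% untreated and 22.5 and 19.2% at 21 h. Tnfaip3 went from 4.28 and 4.67% to 7.55 and 7.51%.

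Within the subunits the balance moved. Nfkb1 made up 34.3 and 38.4% of the summed subunit footprint level untreated, 26.3 and 26.2% at 6 h, and 16.2 and 12.6% at 21 h, while Rela went from 38.4 and 37.1% through 42.6 and 44.3% to 49.9 and 54.5%. The level of Rela divided by that of Nfkb1 was accordingly 1.12 and 0.966 untreated, 1.62 and 1.69 at 6 h, and 3.08 and 4.32 at 21 h, with no overlap between groups. On the log2 scale this ratio was higher than untreated by 0.67 at 6 h and by 1.81 at 21 h, beside pooled SDs of 0.11 and 0.27. In RNA the ratio was 0.823 and 0.977 untreated, 1.79 and 1.09 at 6 h, and 2.76 and 3.25 at 21 h. With 2 libraries against 2, an exact two-sided permutation test of a single ratio cannot go below p = 0.333, so these ratios are given without one.

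**Figure D4:**
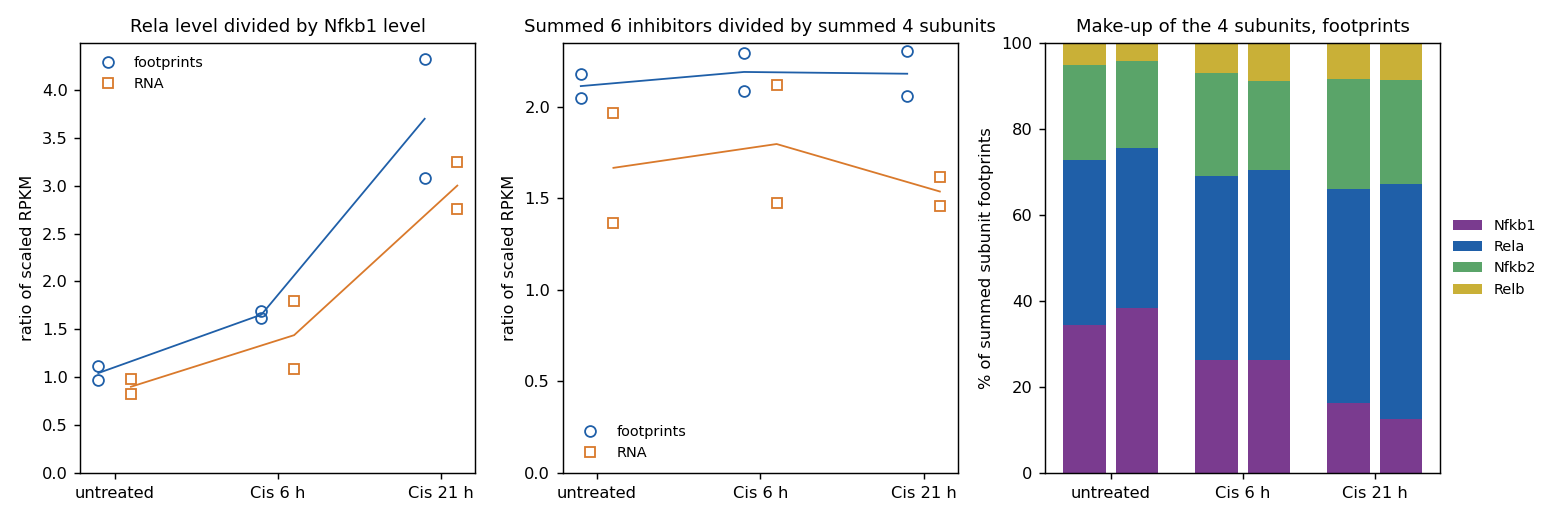
Left, Rela level divided by Nfkb1 level; middle, summed level of 6 inhibitors divided by that of 4 subunits, each point 1 library and lines through group means; right, percent of the summed subunit footprints by subunit, 1 bar per library. The left ratio climbs from about 1 to between 3.08 and 4.32 in footprints, the middle one lies between 2.04 and 2.30 in footprints and 1.37 and 2.12 in RNA, and the Nfkb1 share shrinks to 12.6 and 16.2%.

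Translation efficiency (TE), the footprint change beyond the RNA change, was tested as an interaction over all 12 libraries. No member was called at 6 h, at 21 h or between them, where 0%, 0.409% and 1.01% of 9295 transcripts were called in either direction. Voom called no member either. At an unadjusted p under 0.05 there was 1 member at 6 h (Nfkbib) and 0 in the other contrasts. Over all transcripts that threshold was passed by 710 at 6 h, 1183 at 21 h and 1263 between the times. For Nfkbib the TE log2 fold change was 0.79 ± 0.27 at 6 h (limma, adjusted p = 0.483) and 0.48 ± 0.27 at 21 h (limma, adjusted p = 0.496). At 6 h neither its footprints (0.21 ± 0.14; limma, adjusted p = 0.430) nor its RNA (-0.57 ± 0.23; limma, adjusted p = 0.399) was called. By 21 h its footprints were called higher and its RNA was not called (0.07 ± 0.23). At 21 h the TE values of Nfkb1 (-0.49 ± 0.25, limma, adjusted p = 0.450), Rela (-0.39 ± 0.24, 0.539) and Nfkbiz (-0.43 ± 0.22, 0.449) lay below 0. This sign was general: 0 of 4 subunits and 1 of 6 inhibitors (Nfkbib) lay above 0, beside a median of -0.04 for all transcripts. The 95% interval for Nfkb1, from -1.04 to 0.05, covers both no change and a lower footprint yield per RNA of more than 2-fold. That for Tnfaip3 ran from -0.69 to 0.58.

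The rest of the pathway was read from 5 lists of known components. Of 17 genes of the IκB kinase complex and its upstream kinases, all tested in footprints, 2 rose at 21 h and 0 fell (median log2 fold change 0.06), against the background of 18.9% of all transcripts called higher and 20.2% called lower, which holds for each list. These were Map3k14, the NIK kinase of the non-canonical branch, at 2.09 and 2.40 scaled RPKM untreated and 4.42 and 5.18 at 21 h (log2 fold change 0.95 ± 0.25; limma, adjusted p = 0.0178), and Irak2, a kinase of Toll-like receptor signalling, at 0.77 ± 0.18 (limma, adjusted p = 0.00998). Each lost its call without certain single libraries, Map3k14 without untreated replicate 1 (0.0944), untreated replicate 2 (0.0611) or 21 h replicate 2 (0.0780), and Irak2 without untreated replicate 2 (0.0732) or 21 h replicate 2 (0.0518).

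Of 23 adaptors and ubiquitin ligases tested, 4 rose and 3 fell (median 0.22; background 18.9% and 20.2%). Btrc, which encodes β-TrCP, the ligase component that marks phosphorylated IκB for degradation, was at 10.4 and 11.3 scaled RPKM untreated, 7.37 and 7.15 at 6 h, and 3.22 and 2.79 at 21 h, the 3 groups in order and apart. Its log2 fold change at 21 h was -1.70 ± 0.19 (limma, adjusted p = 0.000318), and its RNA fell too (-1.54 ± 0.38; limma, adjusted p = 0.0165). The RNA change rested on 17 and 24 reads untreated and 2 and 6 at 21 h, and was called under 12 of 15 alternatives. Traf1 and Traf2, adaptors of TNF receptors, rose by 1.17 ± 0.17 and 0.90 ± 0.15 on the log2 scale.

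Of 13 receptors and sensors tested, 5 rose and 0 fell (median 0.20; background 18.9% and 20.2%). The DNA sensor Cgas stood at 6.65 and 8.91 scaled RPKM untreated and 21.6 and 24.4 at 21 h (log2 fold change 1.52 ± 0.19). Its partner Sting1 went from 2.69 and 2.70 to 5.39 and 5.46 (0.89 ± 0.23; limma, adjusted p = 0.0160, and 0.0539 to 0.0745 without untreated replicate 1, untreated replicate 2 or 21 h replicate 2), and Tnfrsf12a, the TWEAK receptor, from 292 and 286 to 674 and 653 (1.20 ± 0.09). Sting1 rested on 16 and 14 footprint reads untreated and on 23 and 22 at 21 h, and its RNA had 0 to 3 reads a library. Of 20 further subunits and inhibitors tested, 5 rose and 4 fell (median 0.04; background 18.9% and 20.2%). Commd1, which promotes turnover of nuclear p65, fell from 98.2 and 86.7 to 39.3 and 24.3 (-1.56 ± 0.20). Nfrkb, a chromatin-remodelling protein named for binding κB DNA, rose from 4.47 and 3.26 to 10.6 and 12.8 (1.49 ± 0.23), and Tnip3, an A20-binding protein at 0.317 to 2.09 scaled RPKM, fell (-1.41 ± 0.35; limma, adjusted p = 0.0127, but 0.0809 by voom and 0.112 without untreated replicate 2). Rel, the remaining subunit of the family and named after its values were seen, rose from 8.66 and 9.30 to 20.0 and 21.9 (1.18 ± 0.15; limma, adjusted p = 0.000633).

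Of 36 target genes outside the members, 14 rose and 6 fell in footprints at 21 h (median 0.21; background 18.9% and 20.2%). The 6 that fell were Vcam1 (log2 fold change -1.11), Bcl2l1 (-0.95), C3 (-0.94), Lcn2 (-0.59), Cxcl5 (-0.41) and Ccl2 (-0.36). The largest rises were those of Il6, Ptgs2 and Ccl20. Il6, an inflammatory cytokine, had 6 and 1 footprint reads untreated, 9 and 4 at 6 h, and 38 and 50 at 21 h, and its RNA was listed at 0 in the 4 untreated and 6 h libraries and at 12 and 11 reads at 21 h. Ptgs2, which encodes the prostaglandin enzyme COX-2, went from 62.5 and 65.9 scaled RPKM to 627 and 692 (log2 fold change 3.35 ± 0.09), and the chemokine Ccl20 from 23 and 7 footprint reads to 86 and 70 (2.95 ± 0.40). Cxcl10 and Ccl5, inflammatory chemokines, were at 238 and 216 and at 96.5 and 124 untreated against 236 and 282 and 146 and 116 at 21 h, and neither was called in footprints (limma, adjusted p = 0.193 and 0.238). Cxcl10 RNA was higher at 21 h than untreated (48.6 and 45.5 against 34.3 and 28.8, log2 fold change 0.58 ± 0.15; limma, adjusted p = 0.0213), a call lost without untreated replicate 2 (0.145), 21 h replicate 1 (0.0916) or 21 h replicate 2 (0.0610), and it was higher than at 6 h by 0.50 ± 0.15 (limma, adjusted p = 0.0488, called under 5 of 16 alternatives). Ccl5 footprints, 71.6 and 62.7 at 6 h, were higher at 21 h by 0.95 ± 0.15 on the log2 scale (limma, adjusted p = 0.00284), with a TE difference of 1.06 ± 0.21 between these times (limma, adjusted p = 0.0328, called under 7 of 23 alternatives). These lists were drawn from textbook knowledge with earlier results of these data known.

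**Figure D5:**
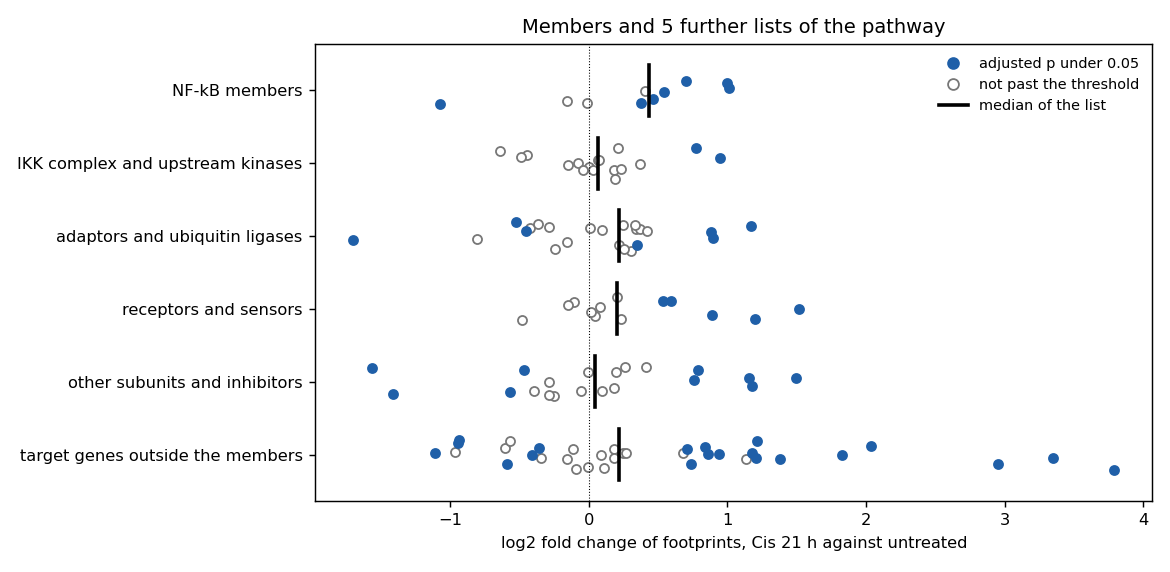
log2 fold change of footprints at 21 h of Cis against untreated for the 10 members and the tested genes of 5 further lists of the pathway, 1 point per gene with vertical jitter; filled points passed an adjusted p of 0.05 and black bars are list medians. Among the kinases 2 of 17 are filled, among the target genes 20 of 36, with Il6, Ptgs2 and Ccl20 farthest to the right.

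The profiles of Nfkbia and Nfkb2 were also compared with those of 9294 other transcripts, by Pearson correlation over the 12 libraries after centring each assay. The closest to Nfkbia were Haspin (0.948), Ranbp3 (0.943) and Asns (0.932), and the closest to Nfkb2 were Depdc1a (0.965), Leo1 (0.964) and Tstd2 (0.948). These values describe libraries that share 3 conditions, and none of the 6 genes is a member.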

How the data were processed

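Footprints of 25 to 35 nucleotides and RNA from the same kind of lysate, made with cycloheximide, were sequenced from KPC cells. The authors deposited RPKM values per transcript. The submitters' processing notes name cutadapt, STAR and GRCm39; versions are not given in the sources used here. RPKM times length was a whole multiple of 1 read for 100% of values (tolerance 0.01), with coding length for footprints and transcript length for RNA, so reads and depth were recovered. Values were scaled within an assay by the median of ratios, transcripts with a mean of at least 1 were kept, and log2(value + 0.5) was fitted with limma 3.58.1 (R 4.3.3; empirical Bayes with a variance trend, all 3 groups in 1 model; TE as the interaction). Fold changes are on that scale, which understates those of low genes. P-values were adjusted by Benjamini-Hochberg over all transcripts tested, with a threshold of 0.05. Alternatives were other pseudocounts (0.1 and 1), filters (none and 5), scalings, designs, voom on the recovered reads and leaving out each library. Same-numbered replicates did not deviate together (correlations -0.05 to 0.08), so the main fit has no replicate block. Strand use in counting is not given in the sources used here.

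The members and lists were chosen with earlier results of these data known. Named genes were all 10 members, up to 3 called genes per list with the largest footprint change at 21 h, Il6, Cxcl10 and Ccl5, and the 3 transcripts most like Nfkbia and Nfkb2. The 6 target genes called lower, and Rel, were named after their values were seen. The start regions come from RefSeq and carry the build GRCm38.p6, which differs from that of the alignment, so they were matched to members by symbol. Figures were drawn with matplotlib 3.10.9.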

Additional observations from a re-analysis of the deposited data

Results flagged for a closer look

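With 2 libraries a group, no test for a library that stands apart from its group was possible. Levels at 21 h of Cis differed from those at 6 h for several members, by the direct contrast of the 2 times (limma, Benjamini-Hochberg adjusted p under 0.05). Time in Cis and time in culture cannot be told apart in this contrast, because neither time has its own control. In footprints Nfkb1 fell by 0.55 on the log2 scale between 6 h and 21 h, while Nfkb2 rose by 0.45, Rela by 0.56, Nfkbia by 0.36 and Tnfaip3 by 0.83. In RNA, Nfkb2 rose by 0.88, Rela by 0.86 and Tnfaip3 by 1.01 over the same interval. The Nfkb2 difference in RNA was called under 6 of 16 alternatives and its size without 6 h replicate 2 was 0.52. In footprints all 5 calls were lost without 6 h replicate 1, where the values were -0.63 for Nfkb1, 0.49 for Nfkb2, 0.46 for Rela, 0.39 for Nfkbia and 0.74 for Tnfaip3. In RNA all 3 were lost without 6 h replicate 2 or 21 h replicate 1, and Nfkb2 and Rela also without 21 h replicate 2.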

How the results depend on the processing

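The number of members called at 21 h in footprints was 7 under every alternative that kept all libraries and 5 to 7 when single libraries were left out. In RNA at 21 h against untreated it was 2, and 4 with a filter at a mean of 5 RPKM, 5 with only the groups compared, 6 by voom and 1 to 5 without single libraries. For 21 h against 6 h it was 5 in footprints (0 to 5 without single libraries) and 3 in RNA (1 without the variance trend, 0 to 4 without single libraries). Further settings changed these counts too. In RNA at 21 h against untreated the number was 3 with RPKM as deposited and 3 with quantile normalization, which called Nfkb1 lower. For 21 h against 6 h it was 4 in footprints without the variance trend. In RNA for 21 h against 6 h it was 4 with RPKM as deposited, and 2 with no filter, quantile normalization or only the groups compared. At 6 h in footprints the number was 0, and 1 by voom (Nfkb1), which called 1276 of all 10383 transcripts. The TE counts were 0 under all alternatives, as was that of RNA at 6 h. The cause of these differences was not tested, except that leaving out a library leaves fewer samples. Among single values, that of Nfkbiz in footprints at 21 h ranged from -0.32 to 0.032 and that of Nfkbib in RNA at 21 h from -0.17 to 0.31 without single libraries. With a replicate block, which the correlations of replicate deviations did not call for, the counts were 7 and 5 in footprints and 3 and 2 in RNA, for 21 h against untreated and against 6 h. The block added Nfkbia in RNA at 21 h (adjusted p = 0.0479) and removed Nfkb2 in RNA against 6 h (adjusted p = 0.0505), both by limma. Over all results, 1040 of 1160 alternative values were counted as the same as the main value. Single fold changes had to keep their direction and their side of the threshold. Counts of called members could move by a set margin, so that 3 and 2 counted as the same. Medians had to move by less than the median SE of their members, and log2 ratios by less than the pooled SD. Depth limits Nfkbie and Relb most, with at most 23 RNA reads a library.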
